A study of Mus musculus with 8 samples.

Results

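The genes described here belong to the families of calcium and TRP channels, with their auxiliary subunits and sensors, and of the pumps that carry calcium out of the cytosol, in mouse embryonic kidneys treated with CHIR99021. They were taken by gene symbol from the count table: the voltage-gated calcium channel subunits (*Cacna1*, *Cacna2d*, *Cacnb* and *Cacng*), the transient receptor potential (TRP) channels of the A, C, M and V subfamilies with *Trpc4ap*, the ryanodine and IP3 receptors, the store-operated channel genes *Stim* and *Orai*, and the calcium ATPases *Atp2a*, *Atp2b* and *Atp2c*. This rule took 68 of the 30890 genes in the table, all protein-coding. The rule itself uses symbols and no values, and it was chosen with earlier results of these data known. Kidneys of C57BL/6 embryos were taken at E12.5, cultured on floating filters for 72 h with either 5 μM CHIR99021, an inhibitor of GSK-3 that raises β-catenin, or 0.1% DMSO as the vehicle, and sequenced as 4 samples per group. The labels name no transgene. Per the study's methods the left kidney of an embryo went to DMSO and the right kidney to CHIR99021, and embryonic kidneys whose Wnt/β-catenin targets had not responded were left out, so the targets' response below was partly selected for and is no independent evidence. Whole kidneys hold many cell types, and fewer cells of a type and less RNA per cell cannot be told apart.

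Calcium enters cells through voltage-gated channels, whose pore is a *Cacna1* product with α2δ, β and γ subunits beside it, through many TRP channels, and through ORAI channels that STIM proteins open once the endoplasmic reticulum has run low on calcium. Ryanodine and IP3 receptors release calcium from that store, the SERCA pumps (*Atp2a*) refill it, and the PMCA (*Atp2b*) and SPCA (*Atp2c*) pumps move calcium out of the cell and into the Golgi. In the kidney, TRPV5 and TRPV6 are the apical calcium entry channels of epithelia that reabsorb calcium, and TRPC6 is known as a channel of podocytes.

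Counts summed to between 14599082 and 17751992 with DMSO and between 14616300 and 16872129 with CHIR99021. Levels are given as CPM, counts scaled to the size of the library with TMM factors, or, where genes are compared with each other, as the authors' FPKM, which is also scaled to gene length. The test between groups was edgeR's quasi-likelihood test, fitted over 16723 genes, and genes below an adjusted p of 0.05 are called (higher or lower, risen or fallen). All 10 markers of nephron progenitors and all 11 of ureteric epithelium on the lists passed the count filter. All 5 Wnt/β-catenin feedback genes checked rose (summed CPM 83.6 to 98.9 with DMSO and 1358 to 1567 with CHIR99021). Markers of several cell types differed between the groups: 10 of 10 nephron progenitor, 9 of 9 macrophage, 8 of 8 endothelial and 6 of 6 tested loop and distal tubule markers fell. Nephron progenitor markers summed to 961 to 1176 CPM with DMSO and 277 to 339 with CHIR99021. Ureteric epithelium markers (7 of 11 lower and 0 higher) summed to 938 to 1120.4 CPM and 584 to 671 CPM, and proximal tubule markers (4 of 6 tested lower and 0 higher) to 64.8 to 249.8 CPM and 21.2 to 56.7 CPM. Of 8 stromal markers 3 rose and 4 fell, with sums of 3739 to 4887 CPM and 7211 to 8777 CPM, and the part of such shifts in the results was not tested.

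Of the 68 genes, 50 passed the count filter. With CHIR99021 17 of them were higher and 17 lower, against 23.7% of all tested genes higher and 25.0% lower, and 16 were not called. With an absolute log2 fold change over 1 there were 6 higher and 9 lower, against 4.65% and 9.16% of all tested genes. The median log2 fold change of the 50 genes was -0.02, and that of all tested genes was 0.00. The 4 samples of one group lay wholly apart from those of the other in 32 of the 50 genes, against 46.1% of all tested genes. For 6 of the tested genes (*Atp2a3*, *Cacng8*, *Trpa1*, *Trpc6*, *Trpm1* and *Trpv5*) the mean count was under 10 in one group, so that they passed the filter through the other group alone, and a difference in these was a condition of their being tested. Of these 6 genes 4 rose and 2 fell, all with an absolute log2 fold change over 1.

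**Figure D1:**
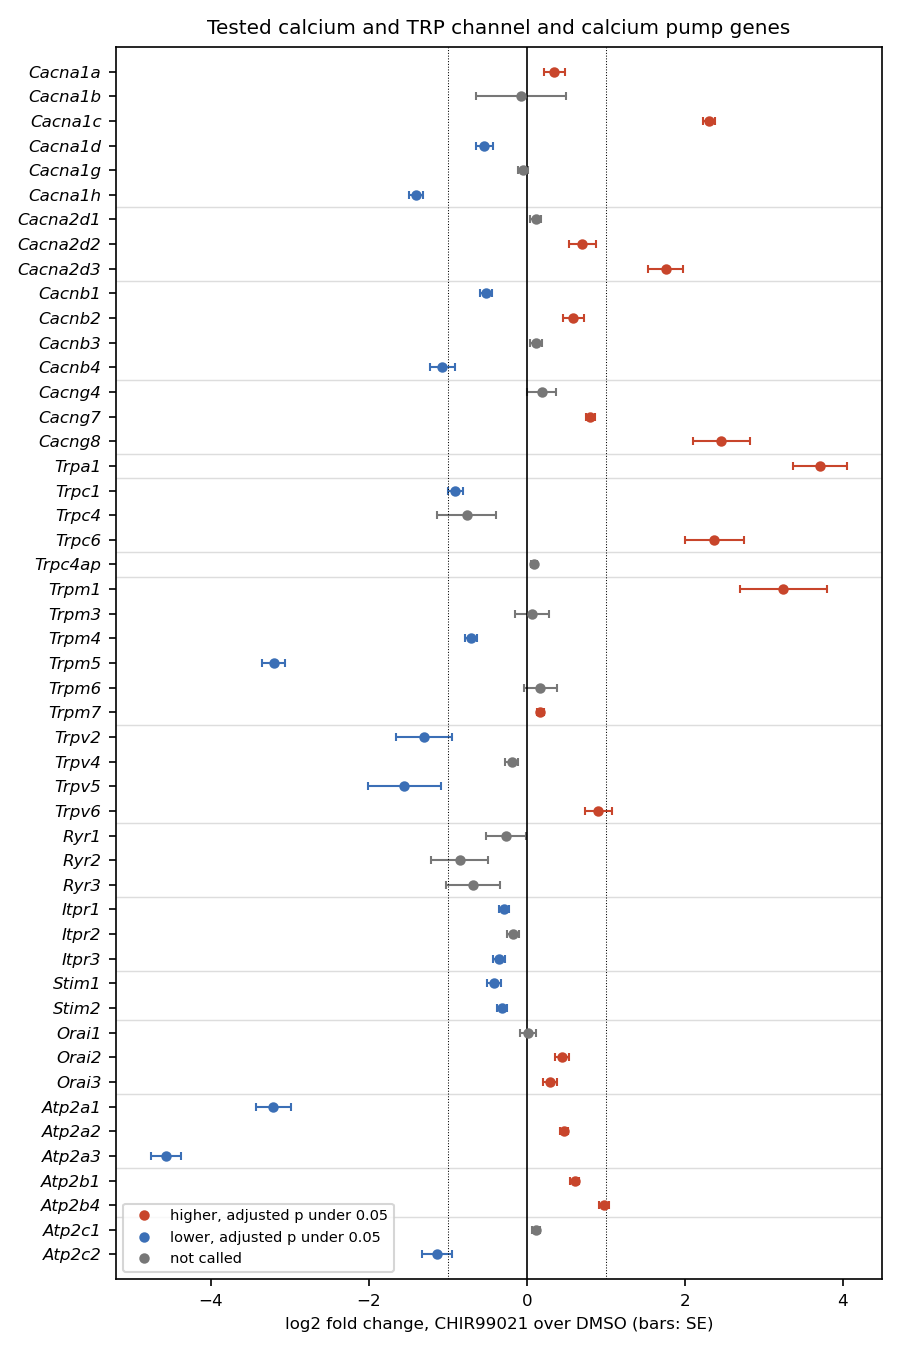
Log2 fold change of CHIR99021 over DMSO with its SE for 49 of the tested genes, ordered by family, with dotted lines at a change of 1 in either direction. There are 17 rises and 16 falls, from *Atp2a3* at -4.57 to *Trpa1* at 3.71.

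The other 18 genes had too few reads to be tested, with 3 to 97 counts over all 8 samples and no more than 1.00 FPKM in any sample. They were the pore genes *Cacna1e*, *Cacna1f*, *Cacna1i* and *Cacna1s*, the auxiliary genes *Cacna2d4*, *Cacng1*, *Cacng2*, *Cacng3*, *Cacng5* and *Cacng6*, the TRP genes *Trpc5*, *Trpc7*, *Trpm2*, *Trpm8*, *Trpv1* and *Trpv3*, and the PMCA genes *Atp2b2* and *Atp2b3*. They were not tested.

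The pore-forming genes of the voltage-gated channels changed in their proportions. *Cacna1c*, the L-type channel of heart and smooth muscle, rose and *Cacna1h*, a T-type channel that opens at low voltage, fell, while the T-type gene *Cacna1g* did not pass the test. *Cacna1c* lies on chromosome 6 from 118587240 to 119196418 (GRCm38, as all positions here). It stood at 25.05, 24.7, 20.97 and 28.1 CPM in DMSO replicates 1 to 4 and at 124, 129, 120.1 and 118 CPM in CHIR99021 replicates 1 to 4. All treated samples lay above all control samples, at 4.97 times the control level (a log2 fold change of 2.31 with SE 0.077, adjusted p = 2.61e-10). *Cacna1h*, on chromosome 17 from 25374285 to 25433783, went from 68.1, 61.7, 76.2 and 68.3 CPM to 26.3, 29.9, 25.5 and 21.8 CPM. Again no sample of one group reached the other (a log2 fold change of -1.40 with SE 0.092, adjusted p = 1.18e-07). *Cacna1g* was the most abundant pore gene per length, at 10.5 ± 0.870 FPKM with DMSO and 9.22 ± 0.358 with CHIR99021 (± is the SD of n = 4 samples throughout). In CPM its samples were 97.3, 94.3, 102 and 113 with DMSO and 101, 102, 98.4 and 91.8 with CHIR99021. The groups overlapped, and the 95% interval of the log2 difference was -0.18 to 0.08 (adjusted p = 0.539).

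Expressed as a share of the summed FPKM of the 10 *Cacna1* genes, *Cacna1g* held 48.7% ± 1.69 with DMSO and 48.1% ± 1.18 with CHIR99021. The share of *Cacna1c* was 5.68% ± 0.653 and 28.8% ± 0.836, and that of *Cacna1h* 34.2% ± 2.25 and 13.1% ± 0.837. These shares are descriptions and were not tested. FPKM values are not corrected for the composition of a library, and on log2(FPKM + 0.1) the median of all tested genes lay at -0.13. The other L-type gene that was tested, *Cacna1d*, fell by 0.54 on the log2 scale (SE 0.11, adjusted p = 0.00117), opposite to *Cacna1c*. The P/Q-type gene *Cacna1a* was called higher (a log2 fold change of 0.35 with SE 0.13, adjusted p = 0.043), and its groups overlapped (6.60, 6.57, 7.21 and 6.41 CPM against 8.24, 9.97, 8.83 and 7.10 CPM). That call ended under 12 of 19 other settings, among them leaving out any 1 sample other than DMSO replicate 3 or CHIR99021 replicate 4, with adjusted p = 0.00254 to 0.221 over all of them. The N-type gene *Cacna1b*, a channel of neurons, was not called (log2 fold change -0.08, 95% interval -1.38 to 1.22). Markers of smooth muscle, in which *Cacna1c* is known, moved in both directions (3 of 8 tested higher and 2 lower) and summed to 182 to 293 CPM with DMSO and 314 to 447 with CHIR99021, and their part in the rise of *Cacna1c* was not tested.

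Among the α2δ genes, whose products help carry the pore to the cell surface, *Cacna2d3* and *Cacna2d2* rose. *Cacna2d3* lies on chromosome 14 from 28904943 to 29721864 and had 2.38, 2.23, 3.28 and 2.22 CPM with DMSO and 11.3, 8.37, 9.11 and 5.59 CPM with CHIR99021. The lowest treated sample exceeded the highest control (a log2 fold change of 1.76 with SE 0.22, adjusted p = 2.75e-05). *Cacna2d2* rose less (a log2 fold change of 0.70 with SE 0.17, adjusted p = 0.00436). *Cacna2d1*, the most abundant of them at 7.97 ± 0.464 FPKM with DMSO and 7.85 ± 0.795 with CHIR99021, had 96.7, 100.4, 94.6 and 86.8 CPM with DMSO and 96.8, 91.4, 112 and 109 CPM with CHIR99021. These ranges overlapped (log2 difference 0.11, 95% interval -0.04 to 0.26, adjusted p = 0.208).

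The β subunits, which sit on the inner face of the channel and set its gating, moved both ways. *Cacnb4*, on chromosome 2 from 52428320 to 52676831, fell from 18.99, 20.04, 19.7 and 15.7 CPM to 7.24, 6.69, 10.7 and 10.9 CPM, without overlap (a log2 fold change of -1.07 with SE 0.16, adjusted p = 1.52e-04). Its exons share 15.99% of their bases with a gene on the opposite strand, *A430018G15Rik*. Whether counting used the strand was not stated, so that reads from this overlap may belong to either gene. *Cacnb1*, the β subunit of skeletal muscle, also fell (a log2 fold change of -0.51 with SE 0.077, adjusted p = 1.22e-04), and *Cacnb2* rose (a log2 fold change of 0.59 with SE 0.13, adjusted p = 0.00212). The most abundant member, *Cacnb3*, stood at 23.5 ± 2.66 FPKM with DMSO and 23.2 ± 1.11 with CHIR99021. Its CPM values were 72.4, 59.1, 76.3 and 72.96 and 72.5, 75.3, 76.5 and 80.1, with overlap between the groups (log2 difference 0.12, 95% interval -0.04 to 0.28).

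Of the *Cacng* genes, which encode γ subunits and the AMPA receptor partners known as TARPs, 3 were tested and 2 rose, beside 23.7% of all tested genes higher. The 2 were *Cacng7* and *Cacng8*, neighbours on chromosome 7 with 22.5 kb between them. *Cacng8* passed the count filter through the CHIR99021 group alone, so that a rise was a condition of its being tested. *Cacng7*, on chromosome 7 from 3332955 to 3368221, was the most abundant of the family at 17.4 ± 0.436 FPKM with DMSO and 27.6 ± 1.85 with CHIR99021. In CPM it rose from 41.6, 39.6, 39.8 and 41.4 to 66.4, 73.97, 67.5 and 75.5, with all treated samples above all controls (a log2 fold change of 0.80 with SE 0.059, adjusted p = 2.84e-07). *Cacng8*, on chromosome 7 from 3390683 to 3415648, had counts of 3, 4, 8 and 3 with DMSO, close to none, and counts of 26, 24, 14 and 26 with CHIR99021 (a log2 fold change of 2.47 with SE 0.36, adjusted p = 1.08e-04). The third gene of that cluster, *Cacng6*, had 3 counts in all with DMSO and 3 with CHIR99021. *Cacng4* was not called (a log2 fold change of 0.19 with SE 0.18, adjusted p = 0.437).

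**Figure D2:**
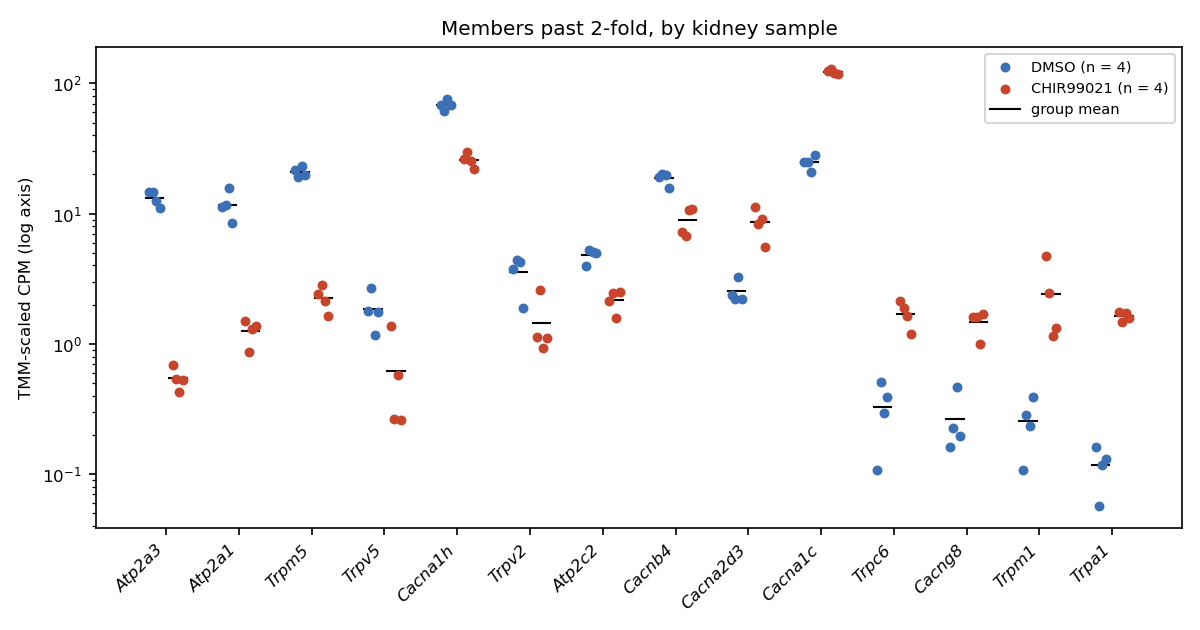
TMM-scaled CPM on a log axis of 14 genes that were called with a log2 fold change beyond 1 in either direction, ordered by fold change. Points are single kidney samples and lines are group means. The groups lie apart in all of them except *Trpv2* and *Trpv5*, where a CHIR99021-treated sample reached into the DMSO range.

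Several low-level channel genes were highest in replicate 2 of both groups. These samples held the most RNA of neuron markers, with a summed level of 102 CPM with DMSO and 171 with CHIR99021, against 41.2 to 54.9 and 27.5 to 41.3 in the other replicates. Chromaffin and sympathoadrenal markers were also highest there, at 38.1 and 43.1 CPM against 9.36 to 18.7 and 3.31 to 21.2. So were Schwann cell and neural crest markers, of which 2 of 6 were tested, at 65.8 and 52.3 CPM against 49.1 to 57.4 and 40.9 to 42.8. Ureteric epithelium (1120.4 and 671 CPM) and podocyte markers (173 and 140.3 CPM) were highest there too. With DMSO the next replicates of these lists were close, at 1119.6 and 170 CPM. Of the 9 neuron markers 0 rose and 1 fell, and none was at 0 in any sample. *Cacna1b* had 0.920, 4.05, 1.52 and 2.49 CPM with DMSO and 1.19, 4.55, 1.58 and 1.18 CPM with CHIR99021. It was highest in replicate 2 in both groups. *Cacng3*, a TARP of the brain, had counts of 1, 39, 2 and 6 with DMSO and 0, 44, 1 and 4 with CHIR99021. *Cacna1e*, the R-type channel, had counts of 4, 17, 2 and 3 and 3, 37, 8 and 0, and *Cacng5* had 2, 30, 8 and 2 and 0, 17, 1 and 3. *Ryr2*, the ryanodine receptor of the heart, had counts of 18, 42, 19 and 18 with DMSO and 8, 17, 10 and 12 with CHIR99021, and *Atp2b2*, a PMCA pump of neurons and hair cells, had 8, 24, 10 and 13 and 2, 15, 2 and 0. In each of these genes replicate 2 held the most counts of its group. These 6 genes were chosen after their values were seen. *Trpv4* (31.1 and 29.6 CPM), *Atp2b4* (77.3 and 168 CPM), *Trpm3*, *Trpv2*, *Atp2b3* and *Cacng1* were also highest in replicate 2 of both groups. The pattern was therefore not confined to genes at low levels. Over all tested genes, DMSO replicate 2 and CHIR99021 replicate 2 correlated at 0.346 after removal of group means. The share of all genes highest in replicate 2 of both groups is not given here. The pattern can therefore not be called particular to these channel and pump genes. The part of RNA from these cell types in the levels of any of these genes was not tested.

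**Figure D3:**
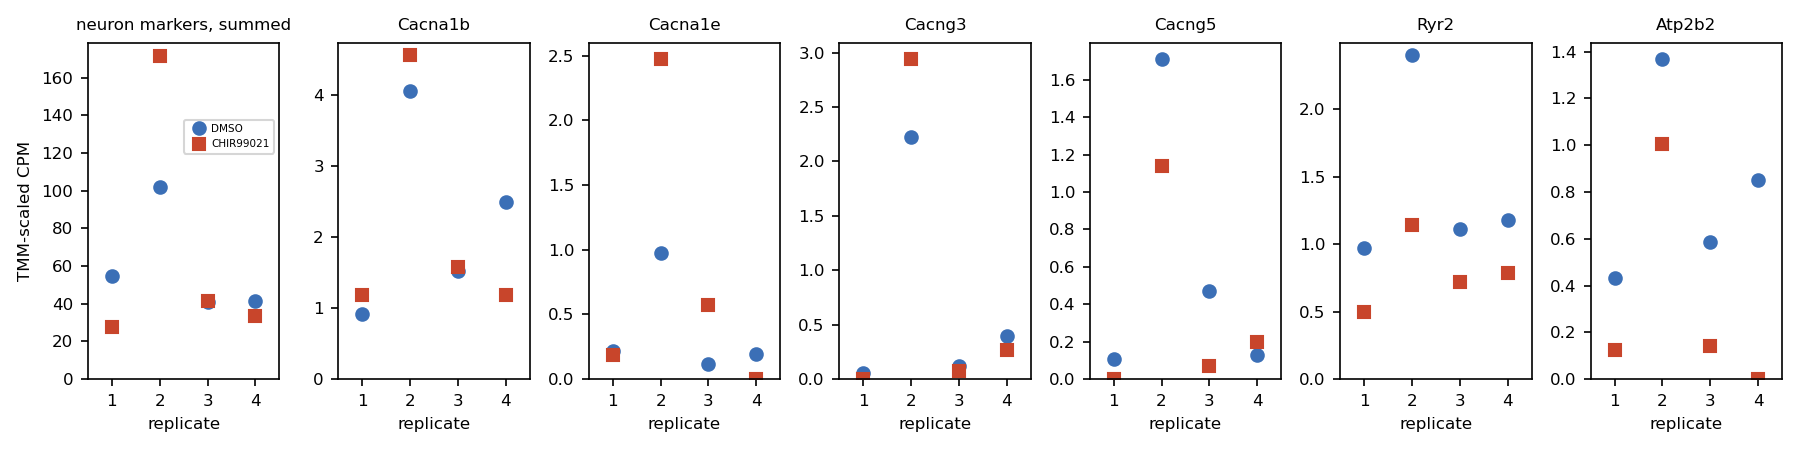
Summed CPM of 9 neuron markers and CPM of 6 channel and pump genes by replicate number, where circles are DMSO and squares CHIR99021 samples. Replicate 2 is the highest of its group in each panel.

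Among the TRP channels, 5 of 15 tested genes rose and 6 fell, beside the same 23.7% and 25.0% of all tested genes. *Trpa1*, *Trpm1* and *Trpc6*, which rose, and *Trpv5*, which fell, passed the count filter through 1 group alone. A difference in these was a condition of their being tested. The TRP genes that rose the most were close to absent with DMSO. *Trpa1*, the irritant receptor of sensory neurons, lies on chromosome 1 from 14872648 to 14918862 and had counts of 3, 1, 2 and 2 in DMSO replicates 1 to 4 and of 28, 22, 24 and 24 in CHIR99021 replicates 1 to 4. In CPM this was 0.162, 0.0571, 0.117 and 0.131 against 1.75, 1.47, 1.72 and 1.58, with every treated sample above every control (a log2 fold change of 3.71 with SE 0.34, adjusted p = 2.09e-06). Its level per length stayed low, at 0.364 ± 0.0291 FPKM with CHIR99021. *Trpm1*, a channel of retinal bipolar cells and melanocytes on chromosome 7 from 64153835 to 64269775, had counts of 2, 5, 4 and 6 with DMSO and 76, 37, 16 and 20 with CHIR99021. All treated samples were higher, with replicate 1 at 4.74 CPM and the lowest at 1.15 (a log2 fold change of 3.25 with SE 0.55, adjusted p = 5.03e-04). *Trpc6*, on chromosome 9 from 8544142 to 8680741, had counts of 2, 9, 5 and 6 and 34, 28, 23 and 18 (a log2 fold change of 2.38 with SE 0.38, adjusted p = 1.95e-04). Of 5 tested markers of podocytes, for which *Trpc6* is known, 1 was higher and 3 lower, and they summed to 106 to 173 CPM with DMSO and 94.5 to 140.3 with CHIR99021, and their part in the rise of *Trpc6* was not tested.

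TRPC channels open downstream of phospholipase C. *Trpc1*, the most abundant TRPC gene at 2.29 ± 0.101 FPKM with DMSO, fell from 16.5, 18.2, 17.7 and 17.9 CPM to 8.18, 9.44, 9.90 and 9.99 CPM (a log2 fold change of -0.91 with SE 0.097, adjusted p = 6.92e-06). *Trpc4* was not called (a log2 fold change of -0.76 with SE 0.37, adjusted p = 0.11), and it was called without DMSO replicate 3 (adjusted p = 0.018, with 0.018 to 0.426 across all settings). *Trpc4ap*, which encodes a ubiquitin ligase adaptor named for its binding to TRPC4 and is no channel, had 165, 168, 169 and 171 CPM and 178, 183, 174 and 179 CPM. In CPM its treated samples all lay above the controls, the test did not call it (a log2 fold change of 0.09 with SE 0.039, adjusted p = 0.0863), and on both FPKM scales the sign was negative.

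In the TRPM family, *Trpm5*, the sodium channel of taste and tuft cells that intracellular calcium opens, fell the most. It lies on chromosome 7 from 143069153 to 143094642 and had 21.7, 19.2, 23.02 and 19.7 CPM with DMSO and 2.43, 2.81, 2.15 and 1.64 CPM with CHIR99021. There was no overlap (a log2 fold change of -3.20 with SE 0.15, adjusted p = 4.59e-09). *Trpm4*, its closest relative and likewise opened by calcium, fell less (a log2 fold change of -0.71 with SE 0.079, adjusted p = 1.04e-05). *Trpm7*, a magnesium and calcium channel with a kinase domain that most cells express, was the most abundant TRPM gene at 19.9 ± 0.808 FPKM with DMSO and 20.4 ± 0.479 with CHIR99021. Its CPM values were 223, 223, 202 and 213 and 246, 239, 248 and 235 (a log2 fold change of 0.17 with SE 0.046, adjusted p = 0.00747). That rise was small, and limma on log2(FPKM + 1) did not call it (adjusted p = 0.554, with 0.00232 to 0.574 across all settings). *Trpm6*, the magnesium channel of the distal tubule, and *Trpm3* were not called, with log2 fold changes of 0.17 (95% interval -0.28 to 0.63) and 0.07 (-0.40 to 0.54). *Trpm2*, a channel of macrophages, was below the count filter, with counts of 12, 20, 14 and 7 with DMSO and 4, 2, 0 and 1 with CHIR99021, which did not overlap. Macrophage markers summed to 114 to 457 CPM with DMSO, lowest in DMSO replicate 4, and to 27.8 to 63.4 with CHIR99021, and their part in the level of *Trpm2* was not tested.

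The epithelial calcium channels *Trpv6* and *Trpv5*, neighbours on chromosome 6 with 15.8 kb between them, moved in opposite directions. *Trpv6*, on chromosome 6 from 41620624 to 41636405, rose from 5.25, 5.77, 4.63 and 5.69 CPM to 13.1, 10.6, 8.54 and 7.63 CPM, with no overlap (a log2 fold change of 0.91 with SE 0.17, adjusted p = 7.88e-04). *Trpv5*, on chromosome 6 from 41652173 to 41680769, had counts of 33, 47, 20 and 27 with DMSO and 22, 4, 8 and 4 with CHIR99021. One treated sample, replicate 1, lay within the range of the controls (a log2 fold change of -1.55 with SE 0.46, adjusted p = 0.0155). Without replicate 2 of both groups, a setting chosen after the values were seen, *Trpv5* was not called (adjusted p = 0.1, with 8.31e-04 to 0.1 across all settings). Markers of the loop of Henle and distal tubule, where *Trpv5* is known, summed to 81.8 to 167 CPM with DMSO and 10.1 to 21.1 with CHIR99021, and their part in its fall was not tested. *S100g* and *Calb1*, the calcium-binding proteins that carry calcium across the same epithelia, fell. *Calb1* is also on the list of ureteric epithelium markers. *S100g* went from 17.4 ± 0.881 to 1.10 ± 0.356 CPM (a log2 fold change of -3.96 with SE 0.17, adjusted p = 3.32e-09), and *Calb1* from 128 ± 12.4 to 12.6 ± 2.13 CPM (a log2 fold change of -3.34 with SE 0.12, adjusted p = 4.42e-09).

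*Trpv4*, a channel opened by osmotic stress and the most abundant TRPV gene at 7.50 ± 0.368 FPKM with DMSO and 5.98 ± 0.681 with CHIR99021, had 28.8, 31.1, 27.3 and 29.8 CPM and 24.3, 29.6, 22.6 and 25.97 CPM. The groups overlapped and it was not called (a log2 fold change of -0.19 with SE 0.085, adjusted p = 0.0821). With the replicate number as a block it was called lower (log2 fold change -0.20, adjusted p = 0.0339, with 0.00981 to 0.234 across all settings). It was also called lower with upper-quartile scaling, on both FPKM scales, without CHIR99021 replicate 2 (adjusted p = 0.0172) and without replicate 2 of both groups. *Trpv2*, a channel of macrophages and other cells on chromosome 11 from 62574486 to 62600515, fell from 3.73, 4.40, 4.22 and 1.90 CPM to 1.12, 2.61, 0.933 and 1.12 CPM. DMSO replicate 4 was lowest of its group, as it was for macrophage markers (114 CPM against 419 to 457 in the other 3), and CHIR99021 replicate 2 reached above it (a log2 fold change of -1.30 with SE 0.35, adjusted p = 0.00901). Without DMSO replicate 4 the log2 fold change was -1.51 (adjusted p = 0.00193). The part of macrophage RNA in the fall was not tested.

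β-Catenin acts on genes through TCF/LEF factors, whose core motif was searched in the 250 bases before each gene's start in the RefSeq promoter table (GRCm38.p6). The letters searched were CTTTGAA and CTTTGAT, on both strands, and they share their first 6 letters so that one position holds only one of them. The table held 54 of the 68 genes, of which 8 had a match in at least one window, against 8.63% of all 27025 genes with a promoter. Among the tested genes these were *Cacnb2*, *Trpm1* and *Trpv6*, which rose, and *Trpv4*, which was not called. The untested genes with a match were *Cacna1i*, *Cacng6*, *Trpc7* and *Trpm8*. The other risen genes with a window had no match, among them *Atp2b1*, *Atp2b4*, *Cacna2d3*, *Cacng7* and *Trpc6*, and neither had any fallen gene. A match is a description of the letters and not a site. The exon-free parts of these windows are shown, with the match in capitals, because they let *Trpv6*, which rose, be read beside its neighbour *Trpv5*, which fell, and beside *Cacna1c*, the largest rise among the pore genes, neither of which had a match. The match of *Trpm1* lies where a window overlaps an exon and is not shown. In *Cacnb2* the match is on the other strand and reads TTCAAAG. The *Cacna1c* window is the outermost of 3. The sequences run 5′ to 3′ on the strand of the gene.
*Trpv6*, chr6:41636406-41636655, minus strand: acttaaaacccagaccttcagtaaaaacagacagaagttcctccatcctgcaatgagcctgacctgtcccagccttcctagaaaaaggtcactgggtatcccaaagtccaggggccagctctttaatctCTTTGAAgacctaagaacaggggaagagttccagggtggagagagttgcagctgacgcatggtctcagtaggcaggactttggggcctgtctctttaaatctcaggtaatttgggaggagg
*Trpv5*, chr6:41680770-41680973, minus strand: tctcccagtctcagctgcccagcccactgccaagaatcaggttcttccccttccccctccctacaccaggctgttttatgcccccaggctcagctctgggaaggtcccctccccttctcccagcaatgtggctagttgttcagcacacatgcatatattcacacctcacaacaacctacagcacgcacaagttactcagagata
*Trpv4*, chr5:114658422-114658671, minus strand: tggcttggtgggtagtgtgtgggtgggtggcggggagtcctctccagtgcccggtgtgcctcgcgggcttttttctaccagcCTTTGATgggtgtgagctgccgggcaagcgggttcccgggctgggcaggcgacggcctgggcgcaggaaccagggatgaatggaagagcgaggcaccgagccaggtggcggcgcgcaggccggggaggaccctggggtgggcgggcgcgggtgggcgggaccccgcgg
*Cacnb2*, chr2:14823842-14824025, plus strand: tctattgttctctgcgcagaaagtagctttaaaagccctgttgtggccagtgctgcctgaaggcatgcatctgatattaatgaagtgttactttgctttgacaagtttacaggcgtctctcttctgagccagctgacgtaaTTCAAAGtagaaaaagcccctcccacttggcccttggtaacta
*Cacna1c*, chr6:119196419-119196659, minus strand: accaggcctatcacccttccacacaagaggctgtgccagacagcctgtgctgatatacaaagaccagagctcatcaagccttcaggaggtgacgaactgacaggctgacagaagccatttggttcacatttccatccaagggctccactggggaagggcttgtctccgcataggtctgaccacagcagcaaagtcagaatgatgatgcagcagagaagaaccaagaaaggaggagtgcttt

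None of the 6 genes of calcium release from stores rose, and 2 fell, beside 23.7% of all tested genes higher and 25.0% lower. *Itpr3*, the most abundant IP3 receptor at 11.4 ± 1.41 FPKM with DMSO and 8.14 ± 0.436 with CHIR99021, had 90.3, 96.4, 90.4 and 116 CPM with DMSO and 72.1, 75.6, 78.8 and 80.5 CPM with CHIR99021. All treated samples were lower (a log2 fold change of -0.36 with SE 0.078, adjusted p = 0.00226). *Itpr1* fell by a like amount (a log2 fold change of -0.29 with SE 0.062, adjusted p = 0.00201), and *Itpr2* was not called (a log2 fold change of -0.17 with SE 0.077, adjusted p = 0.0821). It was called lower without DMSO replicate 4, with upper-quartile scaling and on both FPKM scales (adjusted p = 0.00857 to 0.251 across all settings). The ryanodine receptors, which dominate release in muscle and neurons, were low. *Ryr1* led them with 0.230 ± 0.0543 FPKM with DMSO and 0.176 ± 0.0618 with CHIR99021, or 5.30, 3.48, 6.03 and 4.38 CPM and 3.49, 2.41, 4.52 and 5.65 CPM. These overlapped (log2 fold change -0.26, 95% interval -0.81 to 0.29, adjusted p = 0.432). *Ryr2* (log2 fold change -0.85, adjusted p = 0.0708) and *Ryr3* (log2 fold change -0.68, adjusted p = 0.122) were not called. With the replicate number as a block both were called lower (adjusted p = 0.0251 and adjusted p = 0.0209), as they were without CHIR99021 replicate 2 (*Ryr2*, adjusted p = 0.0443) or replicate 1 (*Ryr3*, adjusted p = 0.0411), with adjusted p of 0.0251 to 0.512 and 0.0209 to 0.314 across all settings.

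Of the 5 store-operated entry genes 2 rose and 2 fell, beside 23.7% of all tested genes higher and 25.0% lower. The sensor genes were lower and 2 of the 3 pore genes higher. *Stim2*, the more abundant sensor at 9.64 ± 0.721 FPKM with DMSO, had 51.3, 49.8, 44.5 and 43.8 CPM with DMSO and 37.9, 39.3, 38.8 and 36.9 CPM with CHIR99021. Its groups lay apart (a log2 fold change of -0.31 with SE 0.066, adjusted p = 0.00176). *Stim1* fell as well (a log2 fold change of -0.41 with SE 0.091, adjusted p = 0.00217). *Orai3* had the highest level per length of the pore genes, 9.47 ± 0.832 FPKM with DMSO, and went from 19.5, 20.3, 20.8 and 17.01 CPM to 26.3, 24.9, 22.3 and 21.7 CPM (a log2 fold change of 0.30 with SE 0.090, adjusted p = 0.0161). That call ended without DMSO replicate 4 (adjusted p = 0.0505), without replicate 2 of both groups and on both FPKM scales, with a range of 0.00753 to 0.167 across all settings. *Orai2* rose in every setting (a log2 fold change of 0.45 with SE 0.092, adjusted p = 0.00134). *Orai1*, the pore of the classical current in lymphocytes, was not called and its interval of the log2 difference was -0.21 to 0.24. The changes in these 5 genes were all below an absolute log2 fold change of 1.

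The SERCA pumps, which load the endoplasmic reticulum, moved apart. *Atp2a2*, the form found in most cells and in heart, rose while *Atp2a1* and *Atp2a3* fell to low levels. *Atp2a3*, on chromosome 11 from 72961169 to 72993044, had 14.8, 14.6, 12.4 and 10.99 CPM in the 4 DMSO samples and 0.686, 0.536, 0.431 and 0.526 CPM in the 4 CHIR99021 samples. Among the 50 tested channel and pump genes this was the largest fall (a log2 fold change of -4.57 with SE 0.19, adjusted p = 1.81e-09). *Atp2a3* passed the count filter through the DMSO group alone, so that a fall was a condition of its being tested. *Atp2a1*, the form of fast skeletal muscle, on chromosome 7 from 126445858 to 126463108, had 11.1, 11.6, 15.7 and 8.51 CPM and 1.50, 0.870, 1.29 and 1.38 CPM. Its groups were apart as well (a log2 fold change of -3.21 with SE 0.23, adjusted p = 1.94e-07). Its exons share 21.9% of their bases with *Rabep2* on the opposite strand, so that some reads may belong to either gene. *Atp2a2* had 303, 315, 281 and 329 CPM with DMSO and 416, 436, 437 and 413 CPM with CHIR99021 (a log2 fold change of 0.47 with SE 0.053, adjusted p = 1.04e-05). It was also the most abundant of all 68 genes, at 52.8 ± 3.26 FPKM with DMSO and 66.6 ± 1.79 with CHIR99021.

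As a share of the summed SERCA FPKM, *Atp2a2* held 89.5% ± 2.13 with DMSO and 99.3% ± 0.140 with CHIR99021. The shares of *Atp2a1* were 6.04% ± 1.80 and 0.517% ± 0.122, and those of *Atp2a3* 4.44% ± 0.639 and 0.147% ± 0.0314. *Atp2a3* is known from blood and endothelial cells, and the endothelial markers summed to 437 to 602 CPM with DMSO and 168 to 237 with CHIR99021. Macrophage markers summed to 114 to 457 CPM and 27.8 to 63.4 CPM, and of 4 tested erythroid markers 0 were higher and 0 lower. Of 7 tested skeletal muscle markers 2 were lower and 0 higher, with sums of 39.3 to 60.2 CPM and 17.3 to 21.4 CPM. The part of these cell types in the falls of *Atp2a3* and *Atp2a1* was not tested.

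Both tested PMCA pumps, which expel calcium through the plasma membrane, rose, beside 23.7% of all tested genes higher. *Atp2b4*, on chromosome 1 from 133699457 to 133801041, had 73.95, 77.3, 76.3 and 75.8 CPM with DMSO and 139, 168, 139 and 153 CPM with CHIR99021, with no overlap (a log2 fold change of 0.98 with SE 0.062, adjusted p = 7.27e-08). *Atp2b1*, the more abundant and the form most cells use, had 194, 197, 177 and 195 CPM and 281, 272, 296 and 312 CPM. Here too the groups did not overlap (a log2 fold change of 0.60 with SE 0.054, adjusted p = 1.44e-06). The summed FPKM of the 4 PMCA genes was 19.8 ± 0.564 with DMSO and 29.9 ± 1.42 with CHIR99021, of which *Atp2b1* held 66.3% ± 1.08 and 60.8% ± 3.07. Of the SPCA pumps of the Golgi, *Atp2c1* had 102, 101, 89.6 and 102 CPM and 108, 109, 109.7 and 101 CPM and was not called (a log2 fold change of 0.12 with SE 0.054, adjusted p = 0.0856). Of its exon bases 19.0% are shared with *Aste1* on the opposite strand. *Atp2c2*, the form of secretory epithelia, on chromosome 8 from 119700009 to 119757717, fell from 3.95, 5.25, 5.04 and 4.97 CPM to 2.12, 2.48, 1.58 and 2.50 CPM, with all treated samples below all controls (a log2 fold change of -1.14 with SE 0.19, adjusted p = 3.25e-04).

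**Figure D4:**
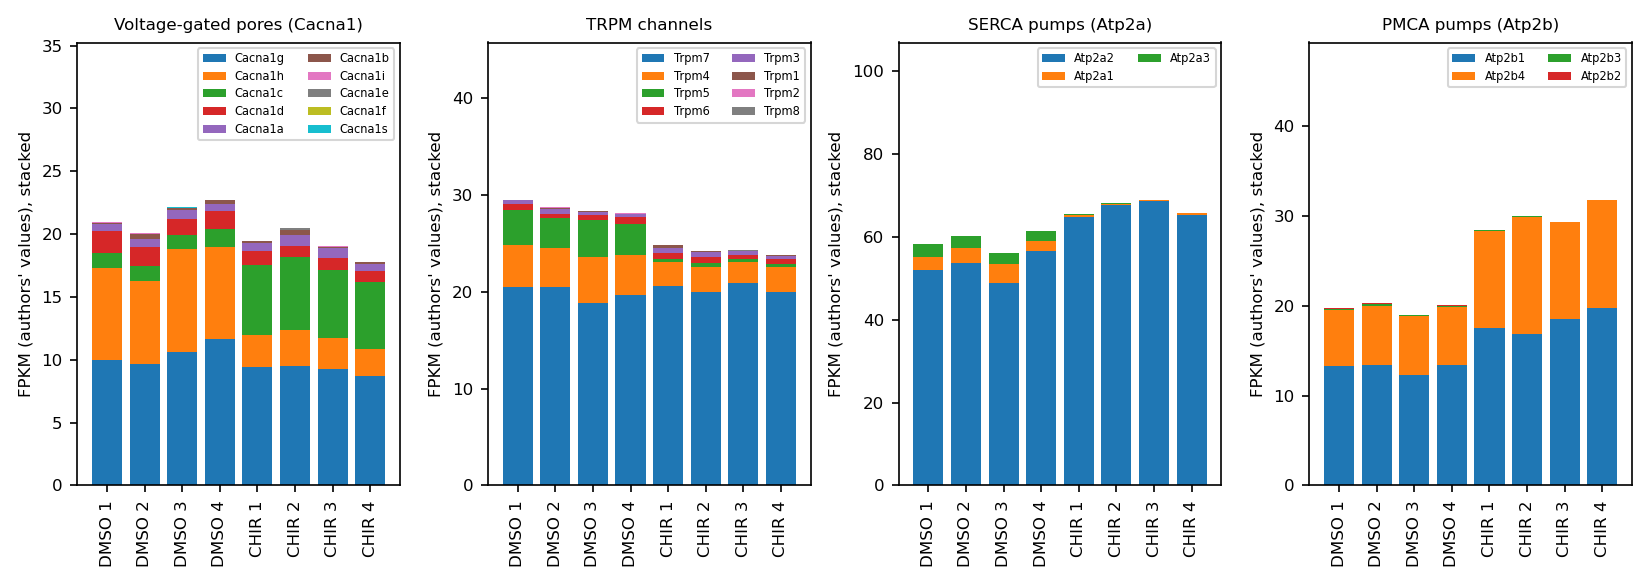
Stacked FPKM, as the authors scaled it, of 4 gene families in each of the 8 kidney samples. *Cacna1c* widens and *Cacna1h* narrows among the pore genes, *Trpm5* and *Trpm4* shrink beside *Trpm7* at 19.9 and 20.4 FPKM, *Atp2a2* makes up 89.5% of SERCA with DMSO and 99.3% with CHIR99021, and both *Atp2b1* and *Atp2b4* grow with CHIR99021.

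Other genes of calcium handling, on 7 lists taken whole from general knowledge, moved in both directions. Of 107 tested genes 33 rose and 29 fell, beside 23.7% and 25.0% of all tested genes, against which the counts of the single lists are also to be read, with a median log2 fold change of 0.03, and limma on log2(FPKM + 1) gave 23 higher and 39 lower. Among the exchangers and channel partners, 8 of 18 rose and 5 fell. *Rem1*, a small GTPase that holds voltage-gated channels back, fell from 53.3 ± 3.45 to 11.5 ± 0.499 CPM (a log2 fold change of -2.21 with SE 0.072, adjusted p = 2.20e-10). *Slc8a1*, the sodium-calcium exchanger NCX1, fell from 41.99 ± 3.36 to 21.7 ± 1.09 CPM (a log2 fold change of -0.95 with SE 0.073, adjusted p = 4.59e-07). *Slc24a5* rose (a log2 fold change of 1.60 with SE 0.13, adjusted p = 7.49e-07) and *Cracr2a*, a regulator of ORAI channels, fell (a log2 fold change of -1.92 with SE 0.21, adjusted p = 7.88e-06). Of 10 polycystin, mucolipin and two-pore channel genes 4 rose and 2 fell. The lysosomal channels *Mcoln2* (a log2 fold change of -2.19 with SE 0.23, adjusted p = 5.83e-06) and *Tpcn1* (a log2 fold change of -1.12 with SE 0.11, adjusted p = 1.30e-05) were lower, and *Mcoln1* (a log2 fold change of 0.57 with SE 0.072, adjusted p = 2.79e-05) and *Tpcn2* (a log2 fold change of 0.56 with SE 0.082, adjusted p = 1.02e-04) were higher.

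Of 21 regulators of SERCA and of the store receptors 9 rose and 3 fell. *Hrc* and *Casq1* encode calcium-binding proteins of the sarcoplasmic reticulum. Both *Hrc* (from 7.09 ± 1.36 to 0.888 ± 0.342 CPM, a log2 fold change of -2.99 with SE 0.26, adjusted p = 1.13e-06) and *Casq1* (from 6.37 ± 1.38 to 1.34 ± 0.306 CPM, a log2 fold change of -2.24 with SE 0.23, adjusted p = 4.52e-06) fell, while *Calr*, a calcium buffer of the endoplasmic reticulum, rose (a log2 fold change of 0.29 with SE 0.10, adjusted p = 0.0355) and *Casq2* was not tested. *Tmem38b*, a counter-ion channel of the store, rose (a log2 fold change of 1.05 with SE 0.099, adjusted p = 2.51e-06), as did *Itpripl2* (a log2 fold change of 0.50 with SE 0.056, adjusted p = 9.71e-06). Of 13 mitochondrial uptake genes 3 rose and 5 fell. *Mcub*, the inhibitory subunit of the mitochondrial uniporter, rose from 1.37 ± 0.280 to 4.69 ± 1.16 CPM (a log2 fold change of 1.78 with SE 0.23, adjusted p = 3.98e-05). The exchanger *Slc8b1* (a log2 fold change of -0.65 with SE 0.092, adjusted p = 7.59e-05) and *Letm1* (a log2 fold change of -0.40 with SE 0.074, adjusted p = 6.40e-04) fell. Among 11 buffers and calmodulins 0 rose and 4 fell. Beside *S100g* and *Calb1* these were *Calml4* (a log2 fold change of -1.98 with SE 0.23, adjusted p = 1.32e-05) and *Ocm*, which had 0 counts in all CHIR99021 samples and 1.91 ± 1.15 CPM with DMSO (adjusted p = 5.82e-04). *Ocm* passed the filter through the DMSO group alone, so that a fall was a condition of its being tested.

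Of 12 phospholipase C genes, whose products make IP3, 3 rose and 5 fell. *Plcg1* (a log2 fold change of 0.42 with SE 0.047, adjusted p = 1.06e-05) and *Plcd3* (a log2 fold change of 0.70 with SE 0.11, adjusted p = 1.95e-04) were higher, and *Plcb1* (a log2 fold change of -1.35 with SE 0.17, adjusted p = 2.33e-05) and *Plcd1* (a log2 fold change of -0.46 with SE 0.081, adjusted p = 4.49e-04) were lower. Of 22 genes of calcineurin, NFAT and the calmodulin kinases 6 rose and 5 fell. *Nfat5*, the member of the NFAT family that answers to osmotic stress and not to calcineurin, rose from 626 ± 32.4 to 1746 ± 79.4 CPM (a log2 fold change of 1.48 with SE 0.056, adjusted p = 8.12e-10). *Rcan1*, a calcineurin inhibitor, rose too (a log2 fold change of 0.74 with SE 0.097, adjusted p = 4.28e-05). The kinase genes *Camk2a* (a log2 fold change of -2.46 with SE 0.18, adjusted p = 3.30e-07) and *Camk2b* (from 10.9 ± 2.02 to 4.13 ± 0.560 CPM, a log2 fold change of -1.40 with SE 0.16, adjusted p = 1.34e-05) fell.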

How the data were processed

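RNA was measured in 8 embryonic kidney samples. The authors cleaned the reads, aligned them with HISAT2 2.0.5 (GRCm38), took counts per gene with featureCounts, and deposited these counts and FPKM values scaled to gene length and library. Their use of strand in counting is not stated. The table's fold changes and p-values are the authors' own comparison and were not used.

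From the counts, filterByExpr (minimum count 10, minimum total 15) kept 16723 of 30890 genes. These were TMM-scaled (factors 1.04 to 1.06 with DMSO, 0.948 to 0.963 with CHIR99021) and compared by group with edgeR's quasi-likelihood test (edgeR 4.0.16, limma 3.58.1, DESeq2 1.42.0, R 4.3.3), with Benjamini-Hochberg adjustment over the 16723 genes. The SE is the log2 fold change divided by the square root of F. The procedure was run on simulated data in which only a small set of well-counted genes changed. That run does not cover genes with few counts or changes in a large share of genes. Samples of equal replicate number correlated at 0.111 to 0.346 after removal of group means and all others at -0.180 to 0.0766, and the study pairs kidneys by embryo, so a fit with replicate as a block was made. P-values weigh the difference between groups against the spread between these 4 samples per group, and the main test took no account of the pairing. Alternatives were 2 other scalings (RLE, upper quartile), 2 other count tests (DESeq2, limma-voom), 2 other filters, limma on log2 FPKM (pseudocounts 1 and 0.1) and on log2(count + 1), and samples left out.

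Members and lists were chosen with earlier results of these data known. Per-sample values are given for members called past an absolute log2 fold change of 1 and for the most abundant member per family, and up to 4 called genes are named per partner list, by smallest p. *Calr* and the untested *Casq2* were named outside this rule. Per-sample values of *Cacna1a*, *Cacna1b*, *Trpm2*, *Trpv6* and *Atp2b4* and of the genes highest in replicate 2 were added after they were seen. Of 127 partner genes 125 matched. A channel gene and a partner gene enter the counts and are not reported here by name. Overlaps of exons and 50-base stretches were taken from GENCODE M21, promoters from RefSeq, where the motif search left out the bases after the start.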

Additional observations from a re-analysis of the deposited data

Results flagged for a closer look

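In 8 of 100 groups of 4 samples (50 tested genes, each group by itself) 1 sample stood apart from the other 3 by Dixon's criterion at 95%, where chance flags about 1 in 20. Replicate 2, which held the most neuron marker RNA in both groups, was the highest in 3 of them. *Cacna1b* stood at 4.55 CPM (the other 3 at 1.18 to 1.58) with CHIR99021, *Trpv2* at 2.61 CPM (the other 3 at 0.933 to 1.12) with CHIR99021, and *Ryr2* at 2.40 CPM (the other 3 at 0.974 to 1.18) with DMSO.

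DMSO replicate 3 was the lowest of its group for *Atp2b1* at 177 CPM (the other 3 at 194 to 197) and *Atp2c1* at 89.6 CPM (the other 3 at 101 to 102) and the highest for *Cacna2d3* at 3.28 CPM (the other 3 at 2.22 to 2.38). With CHIR99021, replicate 4 was lowest for *Atp2c1* at 101 CPM (the other 3 at 108 to 109.7) and replicate 3 for *Cacng8* at 1.00 CPM (the other 3 at 1.61 to 1.71).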

How the results depend on the processing

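Over 19 other settings, 33 of the 50 tested genes kept both their direction and their side of the threshold, and no called gene changed direction. Higher genes numbered 14 to 17 and lower genes 17 to 20 over the settings that kept all samples, against 17 and 17, and with the replicate block they were 17 and 20. Beyond *Trpv4*, *Ryr2* and *Ryr3* the block changed no call of these genes. Other calcium-handling genes numbered 23 to 34 higher and 29 to 39 lower, with 30 and 32 under the block. Past an absolute log2 fold change of 1, limma on log2(FPKM + 1) gave 1 higher and 5 lower in place of 6 and 9, where the added 1 shrinks the fold of genes at low FPKM. With samples left out, higher genes numbered 15 to 17 and lower genes 17 to 21, those past a log2 fold change of 1 numbered 6 to 7 and 7 to 11, and other calcium-handling genes 29 to 32 and 27 to 32.

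Without length scaling, family shares by counts were 92.4% and 99.6% for *Atp2a2*, 71.2% and 65.9% for *Atp2b1*, 45.5% and 36.2% for *Cacna1g*, and 11.1% and 45.3% for *Cacna1c* (DMSO and CHIR99021). The shares of all these genes therefore depend on length scaling.

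The 8 genes that changed sign were called in no setting. On log2(FPKM + 1) and log2(FPKM + 0.1) the log2 fold changes became -0.012 and -0.012 for *Cacnb3*, -0.013 and -0.014 for *Atp2c1*, -0.046 and -0.049 for *Trpc4ap*, -0.022 and -0.025 for *Cacna2d1*, -0.11 and -0.13 for *Orai1*, and -0.019 and -0.052 for *Trpm3*. On log2(count + 1) they were -0.010 for *Trpc4ap* and 0.16 for *Cacna1b*, and with upper-quartile scaling -0.033 for *Orai1*. With samples left out they ranged from -0.765 to 0.378 for *Cacna1b*, from -0.065 to 0.090 for *Orai1* and from -0.019 to 0.220 for *Trpm3*, *Orai1* stood at -0.027 and *Trpm6* stood at -0.005 without replicate 2 of both groups, a setting added after the data were seen. The cause was not tested. Genes with few counts, such as *Trpa1*, *Trpm1*, *Trpc6* and *Cacng8*, rest on 8 to 22 counts over the DMSO group, which limits the precision of their fold changes.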
